A study of Mus musculus with 12 samples.

Results

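Cdk5rap1 and 8 further genes of tRNA-modifying enzymes were examined in haematopoietic stem cells (HSCs) of wild-type (WT) and Pon2-/- mice. The 8 genes are Trit1, Cdkal1, Mto1, Gtpbp3, Trmu, Pus1, Trmt10c and Trmt61b. The question was whether the higher Cdk5rap1 in Pon2-/- HSCs was shared by related enzymes. Cdk5rap1 was chosen by its counts in these samples, which differed between the genotypes, and the others were chosen for the function of their products. The 9 genes are 9 of 49585 genes in the count data, and each of the 9 was among the 11848 genes that passed the filter on low counts and were tested.

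The samples were RNA-seq libraries from 6 WT and 6 Pon2-/- mice, all on the C57BL/6J background and 10 to 14 weeks old. Pon2 encodes paraoxonase 2, an enzyme with antioxidant activity, and the Pon2-/- mice carry a loxP-flanked gene trap cassette with a β-geo reporter in intron 2 of Pon2. The WT mice were purchased from a commercial breeder, the Pon2-/- mice came from the gene trap line, and both were kept in the same animal facility. A difference in the source of the animals cannot be told apart from the genotype. From the bone marrow of each mouse, 8 wells with 10 cells each were sorted as Lin-, Sca1+, ckit+, CD135- and CD150+, a gate that holds long-term HSCs together with MPP2 progenitors, and 1 column of counts was given per mouse. Each sample therefore rests on few cells, and fewer cells of a type cannot be told apart from less RNA per cell in such samples.

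Total counts were 12967791 to 24228280 for the WT samples and 14671353 to 23122382 for the Pon2-/- samples, and 13941 to 15656 genes per sample had counts. All 10 HSC markers examined were tested and none was without counts. Their summed level was 2240 to 3030 counts per 1000000 counts (CPM) in WT and 2190 to 2820 CPM in Pon2-/- HSCs. Pon2 itself had 56.4 to 202 CPM in WT, compared with 1.16 to 33.1 CPM in Pon2-/- HSCs, so that the genotypes did not overlap. Its log2 fold change was -2.13 (SE 0.57), and its adjusted p was 0.586 in edgeR's quasi-likelihood test, while a two-sided exact permutation test of the 6 against 6 mice gave p = 0.00216, the smallest it can give. The gene carrying the insertion was thus not called with this number of mice, and the biological coefficient of variation over all genes was 99.2%.

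Transfer RNAs are modified after transcription, and the bases at and next to the anticodon are among the most heavily modified, since they affect how a codon is read. In mitochondria, Trit1 attaches an isopentenyl group to the adenosine that follows the anticodon. Cdk5rap1, a radical SAM enzyme with iron-sulfur clusters, then adds a methylthio group to the same base of the tRNAs for phenylalanine, tryptophan, tyrosine and serine (UCN). Mto1 and Gtpbp3 together place a taurinomethyl group on the wobble uridine of a set of mitochondrial tRNAs that includes the one for tryptophan, and Trmu adds sulfur to the wobble uridine in part of that set. Pus1 converts uridine to pseudouridine in mitochondrial and nuclear-encoded tRNAs, Trmt10c is a methyltransferase and a subunit of mitochondrial RNase P, and Trmt61b methylates an adenosine in the T loop. Cdkal1 is not a mitochondrial tRNA enzyme. It is a relative of Cdk5rap1 that adds a methylthio group to cytosolic tRNA for lysine, and it serves here as a comparison outside mitochondria.

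The tRNAs on which Trit1 and Cdk5rap1 act are printed here to show the base that both enzymes modify. The 5 letters in capitals are the anticodon and the 2 bases that follow it, 5′ to 3′, and the first base after the anticodon is the modified adenosine. The sequences are those of GENCODE release M21 for the GRCm38 build, written as DNA from the coding strand of each tRNA gene.
mt-Tf, phenylalanine, chromosome M 1 to 68, plus strand: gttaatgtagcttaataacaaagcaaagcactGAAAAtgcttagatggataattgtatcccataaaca
mt-Tw, tryptophan, chromosome M 4950 to 5016, plus strand: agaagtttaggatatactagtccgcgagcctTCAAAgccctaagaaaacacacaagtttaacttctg
mt-Ty, tyrosine, chromosome M 5260 to 5326, minus strand: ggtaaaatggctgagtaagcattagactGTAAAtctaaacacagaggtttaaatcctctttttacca
mt-Ts1, serine, chromosome M 6870 to 6938, minus strand: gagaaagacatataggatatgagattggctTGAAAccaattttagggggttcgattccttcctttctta
Each of the 4 has an adenosine as the last base of the anticodon and at both bases after it. This run of 3 adenosines was found in 6 of 22 mitochondrial tRNAs, the others being mt-Tc and mt-Tl1. The run is a description of the letters and does not show that a base is modified.

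Cdk5rap1 (ENSMUSG00000027487.11, GRCm38 chromosome 2, 154335380 to 154373010, minus strand) was low in WT HSCs, with 8.70, 1.06, 24.3, 9.39, 10.2 and 40.3 CPM in the 6 mice. In Pon2-/- HSCs it had 81.6, 236, 158, 163, 143 and 74.6 CPM. The lowest Pon2-/- sample was above the highest WT sample, and all 6 Pon2-/- samples stood apart from WT. The mean rose from 15.6 ± 14.2 CPM (SD, n = 6) to 143 ± 59.6 CPM (SD, n = 6), a ratio of means of 9.12 and a log2 fold change of 3.19 (SE 0.65). These values chose the gene and are given as a description without a test. Behind them were 1744 counts in WT and 16304 counts in Pon2-/- HSCs, and the smallest single value rested on 20 counts. Among all tested genes 45 (0.38%) had a log2 fold change at least as high, Cdk5rap1 included, and 46 genes (0.388%) had all Pon2-/- samples above all WT samples.

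No other annotated gene shared exon bases with Cdk5rap1, and no near-identical copy of its transcript was found. Within 1 Mb on each side of it, 18 of 57 annotated genes were tested, and 10 of these had a positive log2 fold change. Their log2 fold changes were -0.70 to 0.92 with a median of 0.11, none was called, and in none were the genotypes free of overlap.

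**Figure D1:**
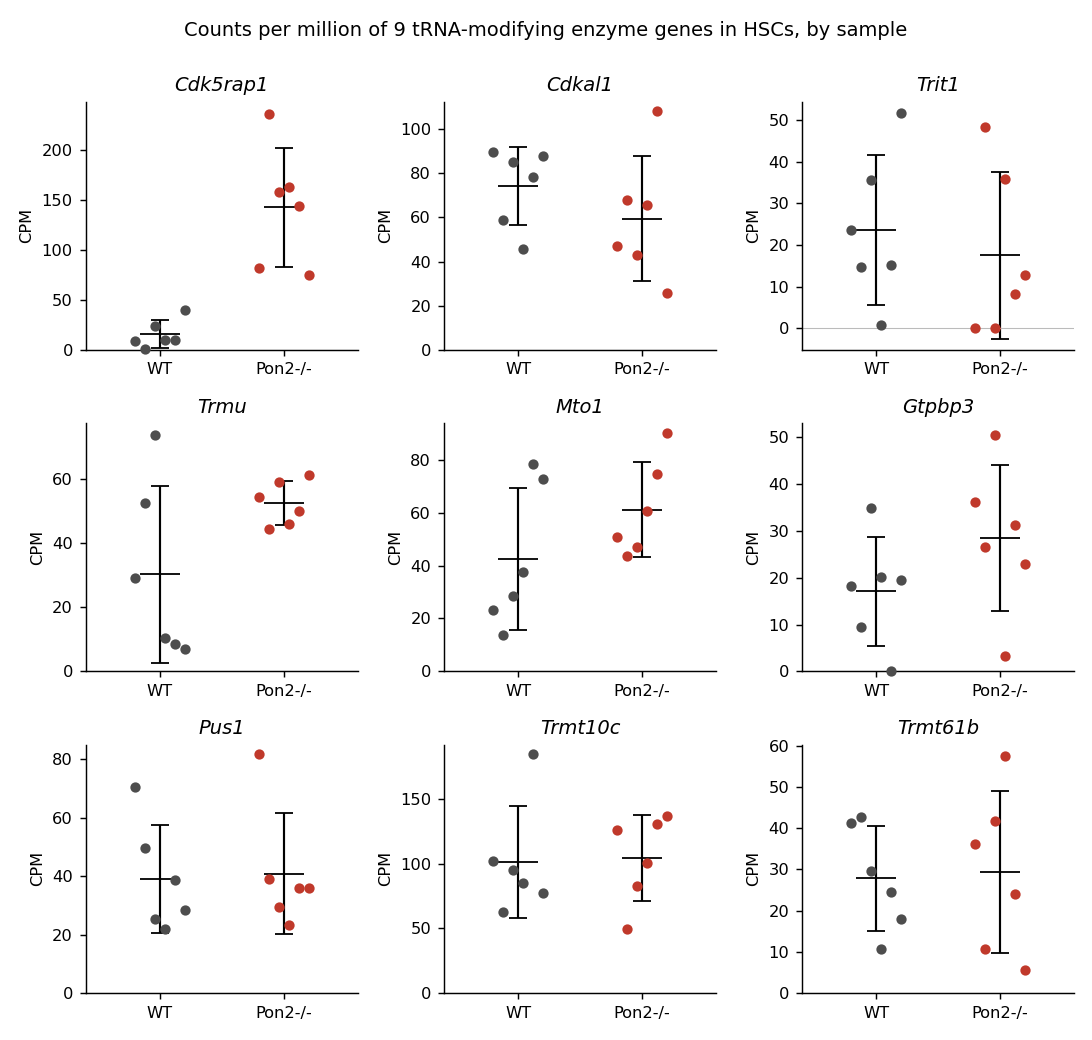
CPM of the 9 genes in each sample, with WT in grey and Pon2-/- in red, 1 point per mouse, horizontal line at the mean and error bars of 1 SD. Only Cdk5rap1 shows groups without overlap, with 1.06 to 40.3 CPM in WT, compared with 74.6 to 236 CPM in Pon2-/- HSCs.

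None of the other 8 enzymes passed the thresholds that were used, a Benjamini-Hochberg adjusted p under 0.05 together with a change of over 1 on the log2 scale in edgeR's quasi-likelihood test. These thresholds called 24 of 11848 genes (0.203%), 15 of them higher (0.127%) and 9 lower (0.076%) in Pon2-/- HSCs, and at such a rate 8 genes would be expected to hold no call. The adjusted p was 1.0 for each of the 8. The adjusted p alone would have called 0.211% of all genes, and DESeq2 with its default settings called 1.79% of the genes it tested, in either case none of the 8. No log2 fold change of the 8 was above 1 or below -1, compared with 5.82% and 6.84% of all tested genes. No gene of the 8 had an unadjusted p below 0.05 either, compared with 371 of all tested genes (3.13%). In none of the 8 were all Pon2-/- samples above or below all WT samples, compared with 0.388% and 0.245% of all tested genes. Of the 8 genes 6 had a positive and 2 a negative log2 fold change, with a median of 0.07, while 49.2% of all tested genes were positive and their median was -0.01. Without WT replicate 4 or without WT replicate 6, the number with a positive value was 3 of 8, because 3 of the genes lay close to 0.

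Trit1 (ENSMUSG00000028653.16, chromosome 4, 123016597 to 123054949, plus strand), which makes the isopentenyl adenosine that Cdk5rap1 acts on, had the largest standard error of the 8. It had 0.783 to 51.6 CPM (median 19.4) in WT, compared with 0 to 48.3 CPM (median 10.4) in Pon2-/- HSCs. The genotypes overlapped over nearly the whole range, and 3 samples, WT replicate 4 with 10 counts and Pon2-/- replicates 1 and 3 with 0 and 2 counts, lay below 10% of the median of their genotype. For the sample without counts, 3 counts correspond to an upper limit of 0.179 CPM, which covers counting error only. The means were 23.6 ± 17.9 and 17.5 ± 20.03 CPM (SD over 6 mice each), and the log2 fold change was -0.43 (SE 1.28, 95% interval -3.18 to 2.33). A difference of several fold in either direction is thus not excluded for Trit1, and the two-sided exact permutation test gave p = 0.281.

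Cdkal1 (ENSMUSG00000006191.17, chromosome 13, 29191746 to 29855674, minus strand), the cytosolic relative of Cdk5rap1, had 45.9 to 89.4 CPM (median 81.6) in WT, compared with 25.8 to 108 CPM (median 56.1) in Pon2-/- HSCs. The highest and the lowest of the 12 samples were both Pon2-/-, and the groups overlapped. The means were 74.2 ± 17.8 and 59.5 ± 28.5 CPM (SD over 6 mice each), with a log2 fold change of -0.32 (SE 0.33, 95% interval -1.03 to 0.39). The exact permutation test gave p = 0.238. The upper end of the interval is below the log2 fold change of 3.19 of its relative, a value that chose Cdk5rap1 and is taken here as fixed.

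The enzymes of the wobble uridine were the 3 with the largest positive values. Trmu (ENSMUSG00000022386.12, chromosome 15, 85879312 to 85897394, plus strand), which thiolates this base, had 7.12 to 73.9 CPM (median 19.9) in WT, compared with 44.4 to 61.2 CPM (median 52.2) in Pon2-/- HSCs. All 6 Pon2-/- samples lay above the WT median but within the WT range, since WT replicates 2 and 3 had 52.7 and 73.9 CPM. The means were 30.3 ± 27.6 and 52.6 ± 6.87 CPM (SD over 6 mice each), the log2 fold change was 0.79 (SE 0.56, 95% interval -0.42 to 2.00), with p = 0.0606 in the exact permutation test. WT replicates 2 and 3 decided the side of 0.05 in this test, as p was 0.0238 without the former and 0.00866 without the latter. Both values are before any adjustment for the 8 genes. With any other single sample left out, p was 0.0758 to 0.104 in the same test. The coefficient of variation was 91.0% in WT and 13.1% in Pon2-/- HSCs, whereas tested genes with a mean between 15.65 and 142.7 CPM, the lowest and the highest mean of the members, had medians of 49.4% and 50.5%. This difference in spread was not tested.

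Mto1 (ENSMUSG00000032342.13, chromosome 9, 78448208 to 78475348, plus strand), which works together with Gtpbp3, had 13.8 to 78.2 CPM (median 33.1) in WT, compared with 43.7 to 89.95 CPM (median 55.8) in Pon2-/- HSCs. All 6 Pon2-/- samples were above the WT median, but only 1 was above the highest WT sample. The means were 42.4 ± 26.9 and 61.2 ± 18 CPM (SD over 6 mice each), with a log2 fold change of 0.53 (SE 0.42, 95% interval -0.38 to 1.44). The exact permutation test gave p = 0.117. In this test p was 0.0368 without WT replicate 5 and 0.0498 without WT replicate 6. These are the 2 highest WT samples, and leaving out either widens the difference between the genotypes. With any other single sample left out, p was 0.11 to 0.236 in the same test. None of these p-values was adjusted for the number of genes. Mto1 shares 303 exon bases with Gm17324 on the opposite strand, and Gm17324 had 255 counts over all 12 samples against 4261 and 6677 counts of Mto1 in WT and Pon2-/- HSCs.

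Gtpbp3 (ENSMUSG00000007610.15, chromosome 8, 71488103 to 71499583, plus strand), a GTP-binding protein and the partner of Mto1, had 0.0726 to 34.9 CPM (median 18.9) in WT, compared with 3.33 to 50.4 CPM (median 28.9) in Pon2-/- HSCs. The groups overlapped, with 2 Pon2-/- samples above the highest WT sample and 1 count in WT replicate 5. The means were 17.1 ± 11.7 and 28.5 ± 15.6 CPM (SD over 6 mice each). The log2 fold change was 0.74 (SE 0.89, 95% interval -1.18 to 2.66), with p = 0.379 in the exact permutation test. Mto1 and Gtpbp3 act as 1 complex, but each had its own low samples: Mto1 was lowest in WT replicate 2 and Gtpbp3 in WT replicate 5.

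The 3 remaining enzymes modify other positions of the tRNA, and their ratios of means between the genotypes were 1.03 to 1.05. Pus1 (ENSMUSG00000029507.16, chromosome 5, 110773667 to 110780659, minus strand), the pseudouridine synthase, had 22 to 70.4 CPM (median 33.4) in WT, compared with 23.2 to 81.9 CPM (median 35.96) in Pon2-/- HSCs. The means were 39.0 ± 18.4 and 40.9 ± 20.9 CPM (SD over 6 mice each), and the log2 fold change was 0.07 (SE 0.42, 95% interval -0.84 to 0.97). Replicate 1 was the highest sample in both genotypes, and the other 5 Pon2-/- samples lay between 23.2 and 38.9 CPM. Pus1 shares 138 and 519 exon bases with Gm15559 and Gm26515 on the opposite strand, which had 81 and 63 counts in all.

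Trmt10c (ENSMUSG00000044763.8, chromosome 16, 56032609 to 56037819, minus strand), the RNase P subunit and methyltransferase, had 62.5 to 185 CPM (median 90.03) in WT, compared with 49.8 to 136 CPM (median 113) in Pon2-/- HSCs. Both the genotype means, 101 ± 43.3 and 104 ± 33.5 CPM (SD over 6 mice each), and the ranges overlapped. The log2 fold change was 0.04 (SE 0.30, 95% interval -0.60 to 0.69). Trmt10c and Pus1 were the only members whose 95% interval lay within a log2 fold change of 1 in both directions.

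Trmt61b (ENSMUSG00000085492.7, chromosome 17, 71557027 to 71598755, minus strand), the methyltransferase of the T loop, had 10.6 to 42.9 CPM (median 27.1) in WT, compared with 5.65 to 57.7 CPM (median 30.1) in Pon2-/- HSCs. The highest and the lowest sample were Pon2-/-, so that the Pon2-/- range enclosed the WT range. The means were 27.8 ± 12.8 and 29.3 ± 19.7 CPM (SD over 6 mice each). The log2 fold change was 0.07 (SE 0.59, 95% interval -1.20 to 1.35), while the difference of mean log2 CPM had the opposite sign, -0.16 (exact permutation test, p = 0.805). Trmt61b shares 402 exon bases with Spdya on the opposite strand, and Spdya had 99 counts over all samples. Exact permutation tests of Pus1 and Trmt10c gave p = 0.861 and p = 0.870.

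**Figure D2:**
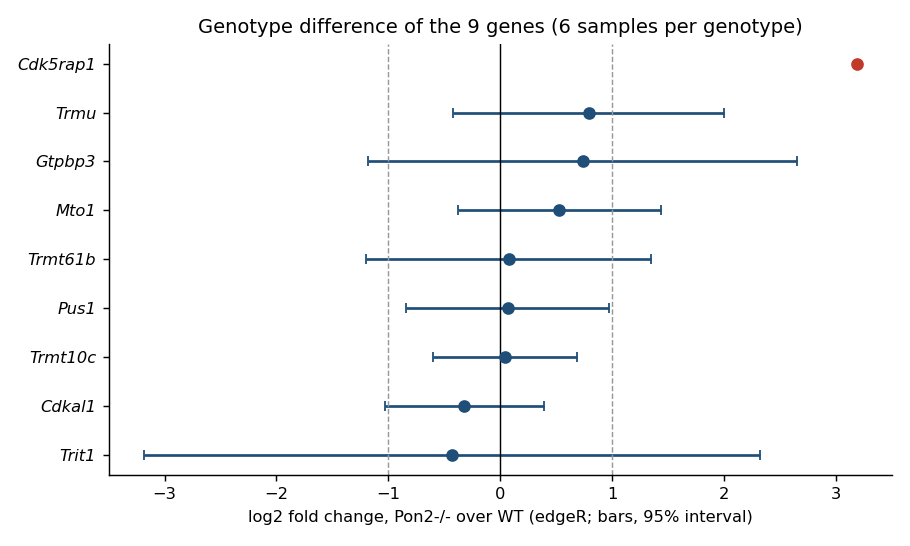
Log2 fold changes of the 9 genes in Pon2-/- relative to WT HSCs by edgeR, with 6 mice per genotype, bars for the 95% interval and dashed lines at -1 and 1. Cdk5rap1 at 3.19 was chosen for this value and is drawn without an interval, and the other 8 genes lie between -0.43 and 0.79 with upper bounds of at most 2.66.

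The upper bounds of all 8 intervals were below the log2 fold change of Cdk5rap1, the highest of them 2.66 for Gtpbp3. In 3 genes, Cdkal1, Pus1 and Trmt10c, the upper bound was below 1, the threshold for a call. For the other 5 genes an increase of more than 2-fold is not excluded by the interval. The comparison with Cdk5rap1 takes its value as fixed and leaves out its SE of 0.65. Since that value chose the gene, no test was made of the difference between genes.

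Levels were compared between genes after division by the length of the merged exons, as CPM per kilobase. In WT HSCs Cdk5rap1 had the lowest median of the 9 genes with 2.85 CPM per kilobase, below Gtpbp3 with 4.75 and Trmu with 5.004. Trmt10c had the highest median with 30.0, followed by Pus1 with 15.3, Trmt61b with 9.36, Trit1 with 9.30, Mto1 with 8.12 and Cdkal1 with 6.38. In Pon2-/- HSCs Cdk5rap1 had the highest median with 43.8 CPM per kilobase, ahead of Trmt10c with 37.7 and Pus1 with 16.5. Mto1 followed with 13.7, Trmu with 13.1, Trmt61b with 10.4, Gtpbp3 with 7.26, Trit1 with 4.999 and Cdkal1 with 4.38. Each pair of neighbours in these orders had overlapping ranges in either genotype, and differences between neighbours were not tested. The move of Cdk5rap1 from the lowest to the highest median follows from the values that chose it.

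Cdk5rap1 accounted for 0.344% to 10.4% (median 3.26%) of the summed level per length of the 9 genes in WT, and for 15.4% to 42.0% (median 27.7%) in Pon2-/- HSCs. The summed level of the other 8 genes was 63.0 to 122.5 CPM per kilobase (median 106) in WT and 95.05 to 131 CPM per kilobase (median 115) in Pon2-/- HSCs. These ranges overlapped, whereas the share of Cdk5rap1 was a consequence of the values that chose it. Lengths came from annotation release M21 and do not take into account which isoform was expressed.

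**Figure D3:**
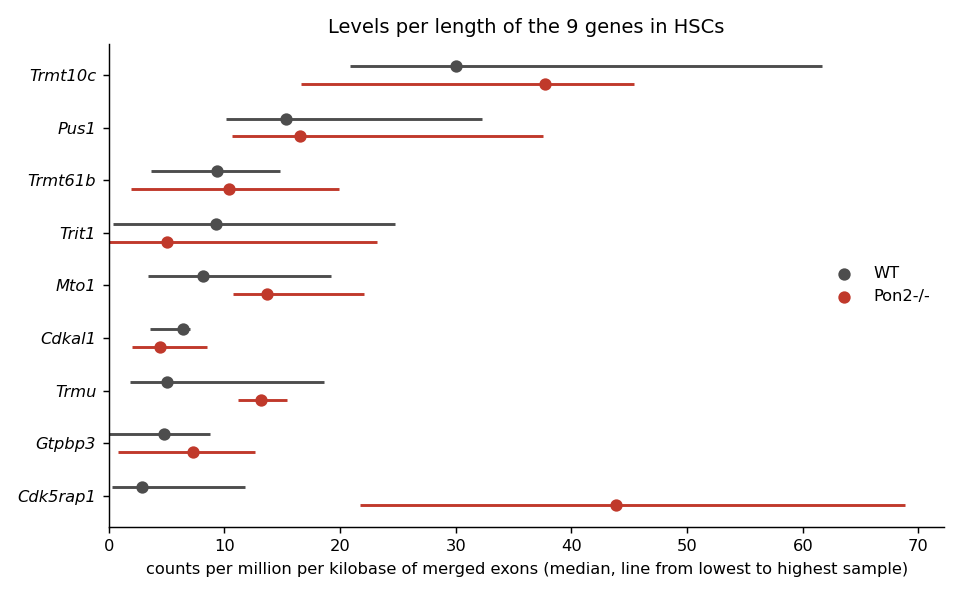
Levels of the 9 genes as CPM per kilobase of merged exons, with a point at the median and a line from the lowest to the highest of 6 samples, WT in grey and Pon2-/- in red. Cdk5rap1 moves from the lowest median in WT, 2.85, to the highest in Pon2-/- HSCs, 43.8, which follows from the values that chose it. The other genes keep overlapping lines.

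Within a genotype, the level of Cdk5rap1 was compared with each of the 8 genes over its 6 mice on the log2 CPM scale, which made 16 correlations. Pearson's r was positive in 8 of the 16 and ranged from -0.83 to 0.71, and Spearman's rho ranged from -0.89 to 0.71. The lowest raw p belonged to Trmt10c in Pon2-/- HSCs (r = -0.83, exact permutation p = 0.0375 and rho = -0.89, exact permutation p = 0.0333). Without the 2 of 6 samples farthest from the median of Cdk5rap1, r was -0.95, a value that rests on the few samples left and was not tested. None of the 16 passed the Benjamini-Hochberg adjustment, with a lowest adjusted p of 0.518 for Pearson's r and 0.435 for Spearman's rho in exact permutation tests. Mto1 in WT had an r of 0.71 that turned to -0.21 without the 2 farthest samples, so that it rested on these samples.

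The genes most like Cdk5rap1 over the 12 samples were sought among all other tested genes by Pearson's r of log2 CPM. This r is given as a description, because the genes were measured in the same libraries and the genotype difference contributes to r. The genes with the highest r were Tstd2 (r = 0.95), the pseudogene Gstm2-ps1 (r = 0.90), Gpatch2 (r = 0.90), Ppp1r35 (r = 0.89) and Slc7a8 (r = 0.88). Slc7a8, a transporter of neutral amino acids, had 0 to 19.9 CPM in WT, compared with 32.4 to 139.5 CPM in Pon2-/- HSCs, with a log2 fold change of 2.87 (SE 0.82, adjusted p = 0.751 in edgeR). Tstd2, whose product carries a rhodanese domain, had 1.00 to 21.6 CPM in WT, compared with 26.7 to 41.4 CPM in Pon2-/- HSCs. Gpatch2 had 0.844 to 37 CPM in WT, compared with 56.5 to 82.7 CPM in Pon2-/- HSCs. In each of these 3 genes the groups did not overlap, and none passed the threshold. The groups overlapped in Gstm2-ps1, with 0.235 to 0.614 CPM in WT and 0.601 to 0.863 CPM in Pon2-/- HSCs. They also overlapped in Ppp1r35, with 1.06 to 10.4 CPM in WT and 4.15 to 16.3 CPM in Pon2-/- HSCs. After the genotype means were subtracted, r was 0.76 to 0.92 for the 5 genes. The 5 genes were picked by r with Cdk5rap1 among 11847 genes in these samples. High values and separated groups thus follow in part from the choice. None of the 5 was a member of the tRNA-modifying enzymes. Among the members Mto1 came closest, with r = 0.66 over the 12 samples at rank 212 of 11847 genes. Within the genotypes the r of Mto1 had opposite signs, 0.71 in WT and -0.58 in Pon2-/- HSCs. Over the 12 samples Gtpbp3 followed with r = 0.32 and Trmu with r = 0.31. Trmt10c had r = 0.03, and Cdkal1, Trit1, Trmt61b and Pus1 had negative values of -0.10 to -0.21.

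Further enzymes of tRNA modification and of the cofactors of Cdk5rap1 were examined in 5 lists. They comprised 20 other enzymes that modify or process mitochondrial RNA, 6 radical SAM enzymes, 14 genes of iron-sulfur cluster assembly, 12 genes of the cytosolic wobble uridine pathway and 19 mitochondrial aminoacyl-tRNA synthetases. Of their 70 different genes 69 were tested and none was called by edgeR, against 0.203% of all genes. In 32 genes the log2 fold change was positive and in 37 negative, with a median of -0.09 and a range of -2.04 to 1.17. An unadjusted p below 0.05 was found in 3 of the 69 genes (4.35%), compared with 3.13% of all tested genes. In none of the 69 were the genotypes free of overlap.

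Among the other enzymes of mitochondrial RNA, 9 genes had positive and 11 negative log2 fold changes (median -0.15). Trmt2b, which methylates uridine in mitochondrial RNA, had 36 ± 11.9 CPM in WT, compared with 67.1 ± 47.5 CPM in Pon2-/- HSCs (SD over 6 mice each), with a log2 fold change of 0.90 (SE 0.44, adjusted p = 1.0 in edgeR). Osgepl1, which makes the threonylcarbamoyl adenosine of mitochondrial tRNAs, had 27.7 ± 8.17 and 14.8 ± 5.85 CPM, with a log2 fold change of -0.90 (SE 0.50, adjusted p = 1.0 in edgeR). The lowest value of the lists was that of Yrdc, which supplies the threonylcarbamoyl group, with -2.04 and means of 30.9 ± 29.9 and 7.51 ± 8.42 CPM. Neither Osgepl1 nor Yrdc was called.

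Of the 6 radical SAM enzymes, which share the cofactor chemistry of Cdk5rap1, 3 had positive and 3 negative log2 fold changes (median 0.07). Tyw1, which builds wybutosine in cytosolic tRNA for phenylalanine, had 40.4 ± 18.3 CPM in WT, compared with 60.6 ± 26.2 CPM in Pon2-/- HSCs, with a log2 fold change of 0.59. Elp3, the catalytic subunit of Elongator, had 74.4 ± 29.7 and 96.7 ± 26.1 CPM, with a log2 fold change of 0.38. Both missed the threshold with an adjusted p of 1.0 in edgeR.

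Among the genes of iron-sulfur cluster assembly, 13 of 14 were tested, of which 5 had positive and 8 negative log2 fold changes (median -0.12). Lyrm4, which stabilizes the cysteine desulfurase, had 56.7 to 89.6 CPM in WT, compared with 37.7 to 63.6 CPM in Pon2-/- HSCs, with a log2 fold change of -0.63 (SE 0.24, unadjusted p = 0.0206 and adjusted p = 1.0 in edgeR). Iscu, the scaffold on which clusters are built, had 178 ± 28.9 and 144 ± 37.5 CPM, with a log2 fold change of -0.31. Fdx2, a ferredoxin, was without counts in all 12 samples.

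In the cytosolic wobble uridine pathway 5 genes had positive and 7 negative log2 fold changes (median -0.14). Elp4 and Elp2, both subunits of Elongator, had log2 fold changes of -0.82 and 0.74, with means of 64.1 ± 29.1 and 36.4 ± 12.4 CPM for Elp4 and 91.3 ± 47.8 and 152 ± 55.8 CPM for Elp2. Subunits of 1 complex thus had values of opposite sign, and neither passed the threshold.

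Of the 19 mitochondrial aminoacyl-tRNA synthetases, which charge the modified tRNAs, 11 had positive and 8 negative log2 fold changes (median 0.07). Rars2, for arginine, had 38.2 to 124 CPM in WT, compared with 81.0 to 171 CPM in Pon2-/- HSCs, with a log2 fold change of 0.69 (SE 0.28, unadjusted p = 0.0256 in edgeR). Kars, which serves cytosol and mitochondria for lysine, had 92.8 to 254 and 179 to 400 CPM, with a log2 fold change of 0.65 (SE 0.26, unadjusted p = 0.0264 in edgeR). The adjusted p of both was 1.0, and the ranges of both overlapped.

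**Figure D4:**
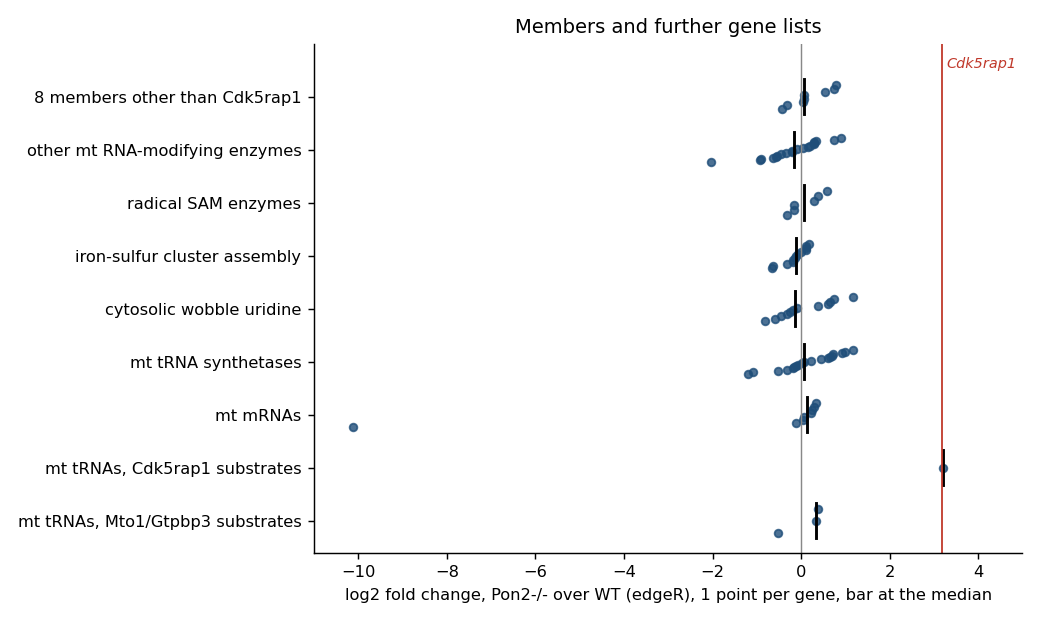
Log2 fold changes in Pon2-/- relative to WT HSCs by edgeR for the 8 other members and for the further lists, 1 point per tested gene, black bar at the median and red line at Cdk5rap1. The 69 tested genes of the 5 enzyme lists lie between -2.04 and 1.17, and the point near -10 is mt-Nd3, whose fitted value depends on the prior count because it had 0 counts in Pon2-/- HSCs.

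The RNAs on which these enzymes act were then examined. Of the 4 tRNA genes printed above, mt-Tw, mt-Ty and mt-Ts1 were without counts in all 12 samples. Only mt-Tf, the tRNA for phenylalanine at the start of the mitochondrial annotation, was tested. It had 0.891, 1.69, 5.85, 0.470, 0.290 and 0.552 CPM in WT, compared with 57.1, 6.38, 4.66, 13.9, 5.46 and 3.06 CPM in Pon2-/- HSCs. All 6 Pon2-/- samples were above the WT median, 3 were above the highest WT sample, and Pon2-/- replicate 1 stood far above the rest. Behind these values were 217 counts in WT and 1555 counts in Pon2-/- HSCs, of which 955 were in Pon2-/- replicate 1.

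The log2 fold change of mt-Tf was 3.21 (SE 1.11, 95% interval 0.83 to 5.58), with an unadjusted p of 0.0118 and an adjusted p of 1.0 in edgeR. The exact permutation test gave p = 0.00866. Without Pon2-/- replicate 1 the log2 fold change was 2.04 with an unadjusted p of 0.0559 in edgeR. DESeq2 called the gene with an adjusted p of 0.0218 with default settings and of 0.00943 without Cook's cutoff. With these settings DESeq2 called 305 genes (1.79%) and 950 genes in all, against 24 by edgeR. The adjusted p of the other alternatives in edgeR and limma was 0.281 to 1.0. The neighbouring gene mt-Rnr1, chosen after its values were seen, had a log2 fold change of 0.00 (SE 0.27), with 5547 to 14470 CPM in WT, compared with 5242 to 14570 CPM in Pon2-/- HSCs. Smart-seq2 copies RNA into cDNA from poly(A) tails, and counts on mt-Tf do not measure the amount of mature tRNA or its modification.

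Besides mt-Tw, 4 tRNAs that carry the taurinomethyl group made by Mto1 and Gtpbp3 were examined, of which mt-Tk was without counts and 3 were tested, with 2 positive and 1 negative log2 fold change and no call. The mitochondrial mRNAs that these tRNAs translate were tested for 8 of 13 genes, of which 6 had positive and 2 negative log2 fold changes (median 0.14). The 1 call among them was mt-Nd3, which had 814 counts in WT and 0 in Pon2-/- HSCs (adjusted p = 0.00454 in edgeR). Against a limit of 3 counts over the group, the counts assigned to mt-Nd3 were at least 271-fold lower. This bound covers counting error only and is not a bound on the amount of RNA. No mitochondrial mRNA was called without the filter on low counts. Genes of the same genome were also without counts in all 12 samples, namely mt-Nd4l, mt-Co3, mt-Atp6 and mt-Atp8, and mt-Co2 had 1 count in each genotype. An annotated pseudogene, Gm28438, is identical to mt-Nd3 over 342 bases, 98.3% of the length of mt-Nd3, and had 1582 counts in all. The counts of Gm28438 were not compared between the genotypes, and its part in the counts of mt-Nd3 was not tested. mt-Cytb had 12030 ± 1526 CPM in WT, compared with 15220 ± 1830 CPM in Pon2-/- HSCs (SD over 6 mice each), a log2 fold change of 0.34 (SE 0.11, adjusted p = 0.918 in edgeR). Mitochondrial genes in all took 4.89% to 9.55% of the counts of a sample.

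Markers of other blood cells were compared between the genotypes as summed CPM. The sum over megakaryocyte markers was 227 to 331 in WT and 186 to 327 in Pon2-/- HSCs, and that over erythroid markers was 40.5 to 71.7 and 26.5 to 69.8. Of the erythroid markers, Car1, Ermap and Slc4a1 had no counts in any sample, and 3 of the tested ones had a positive and 3 a negative log2 fold change. The β-globin gene Hbb-bt had 6.11 to 38.1 CPM in WT, compared with 0 to 1.11 CPM in Pon2-/- HSCs, without overlap (adjusted p = 0.265 in edgeR). Klf1, an erythroid transcription factor, had 0.544 ± 0.92 and 6.73 ± 9.07 CPM (SD over 6 mice each), with a log2 fold change of 3.60 (SE 1.99), and Epor, the erythropoietin receptor, had 5.69 ± 8.60 and 13 ± 7.21 CPM, with a log2 fold change of 1.19 (SE 1.56). The adjusted p of both was 1.0 in edgeR. The α-globin gene Hba-a1 had 0 to 4.01 CPM in WT and 0 to 3.67 CPM in Pon2-/- HSCs, from 157 and 125 counts. Its log2 fold change was -0.13 (SE 1.10). The remaining tested erythroid markers, Tfrc and Alas2, had log2 fold changes of 0.04 (SE 0.73) and -0.69 (SE 1.70). The sums over myeloid markers were 878 to 9880 and 834 to 15000, over B cell markers 25.5 to 353 and 58.8 to 868, and over T and NK cell markers 106 to 265 and 56.0 to 268. Among the T and NK cell markers Cd3e, Cd8a, Trbc2 and Zap70 had no counts. Hbb-bt separated the genotypes in the direction opposite to Cdk5rap1, and its part in the result was not tested.

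**Figure D5:**
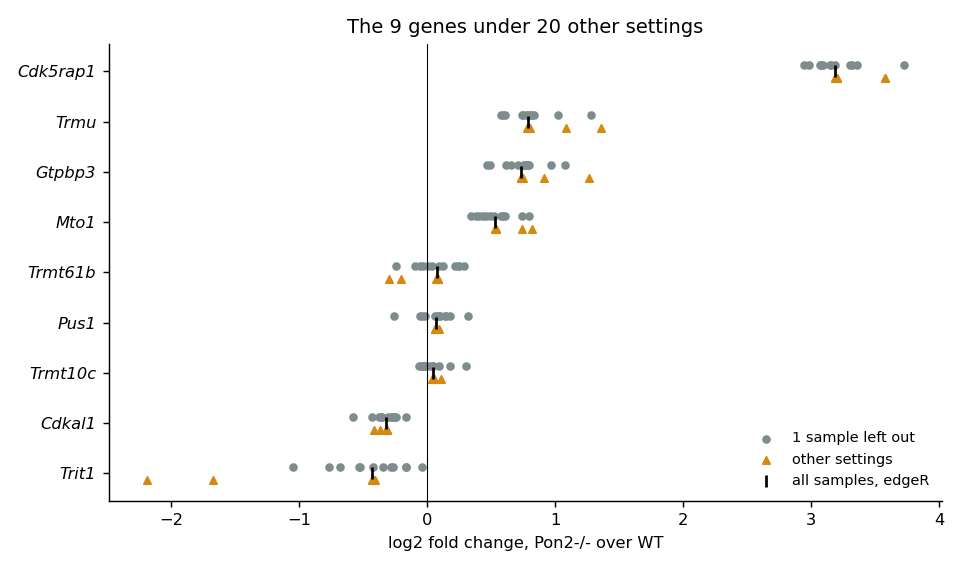
Log2 fold changes of the 9 genes under 20 other settings, with grey points for fits without 1 sample, orange triangles for other normalizations, filters and tools, and a black line for edgeR with all samples. Cdk5rap1 stays between 2.94 and 3.73, Trmu, Gtpbp3 and Mto1 stay above 0, and Trmt61b, Pus1 and Trmt10c lie on both sides of 0.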

How the data were processed

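HSCs of 6 WT and 6 Pon2-/- mice were analysed, and groups were taken from the sample labels. The authors used Smart-seq2, removed adapters (Trimmomatic 0.36), aligned to GRCm38.p5 (STAR 2.5.3a) and deposited raw counts per gene of GENCODE release M12, without normalization or filter. FastQC 0.11.5 and DESeq2 1.18.1 are also named in the submitters' processing notes. The 1 count column per mouse was taken as unstranded, because Smart-seq2 does not mark strand, so that genes overlapping on opposite strands cannot be told apart. Names, positions and exon lengths came from GENCODE release M21 (GRCm38), in which 49326 of 49585 genes were found.

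Genotypes were compared with edgeR 4.0.16 in R 4.3.3 (TMM, filterByExpr, quasi-likelihood test, genotype as the only term). Genes were called at a Benjamini-Hochberg adjusted p under 0.05 together with a change of over 1 on the log2 scale, the thresholds of the study. CPM used the TMM-scaled library, and log2 CPM a prior count of 2. SE was the log2 fold change divided by the square root of F. Exact permutation tests on mean log2 CPM were two-sided over all 924 assignments. Alternatives were DESeq2 size factors, no filter beyond 1 count, at least 10 counts in every sample of 1 genotype, DESeq2 1.42.0 (its defaults, or Cook's cutoff switched off), limma 3.58.1 voom with quality weights, robust estimation, a replicate block, a prior count of 0.5 and leaving out each sample. Copies were sought with minimap2 2.31-r1302 (at least 90% identity over at least 50% of the length).

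The members and lists were chosen with earlier results of these data known. Per list, the genes named are the 2 with the smallest p. For likeness, the 5 genes with the highest r are named. Yrdc, as the lowest value, and mt-Rnr1 were named after their values were seen. An erythroid marker is not reported here. The limit of 3 counts corresponds to 0.121 to 0.235 CPM per sample.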

Additional observations from a re-analysis of the deposited data

Results flagged for a closer look

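In each genotype, the lowest and the highest of the 6 samples were compared with the nearest other sample for each of the 9 genes on the log2 CPM scale, which made 18 groups, and chance is expected to mark about 1 in 20 groups. Trit1 in WT replicate 4, with 0.783 CPM from 10 counts, stood below the other WT samples by 0.69 of their whole range on this scale, above the critical value of Dixon's test, as did the next 2 values. Gtpbp3 in WT replicate 5, with 0.0726 CPM from 1 count, stood below by 0.755 of the range. Gtpbp3 in Pon2-/- replicate 4, with 3.33 CPM from 48 counts, stood below by 0.708 of the range. No cause was tested for these values.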

How the results depend on the processing

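None of the 8 enzymes other than Cdk5rap1 was called under any of the alternatives run, and their lowest adjusted p was 0.591. Trit1 and Cdkal1 stayed negative and Trmu, Mto1 and Gtpbp3 stayed positive in edgeR, DESeq2 and limma. Trit1 was -2.19 with voom against -0.43. Trmt61b turned to -0.30 with voom. Leaving out single samples gave log2 fold changes of -0.26 to 0.32 for Pus1, -0.066 to 0.30 for Trmt10c and -0.24 to 0.29 for Trmt61b. Exact permutation differences ranged from -0.16 to 0.26 for Pus1, -0.066 to 0.25 for Trmt10c and -0.43 to 0.24 for Trmt61b. The number of the 8 genes with a positive value was 3 to 6. The number of called genes was 8 without a filter, 305 with DESeq2 default settings, 950 without Cook's cutoff and 20 to 28 without 1 sample, against 24. DESeq2 called 1 of the tRNAs with methylthio isopentenyl adenosine, mt-Tf, with and without Cook's cutoff. Called mitochondrial mRNAs numbered 0 without a filter. The causes were not tested. With 6 mice per genotype and the spread given above, changes within the interval bounds of each gene are not excluded. The bounds are not limits of detection.

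Samples of the same replicate number did not deviate together (r 0.000932 to 0.043), and 1 of 6 numbers matched best with itself, so that the numbers were not treated as pairs. With a replicate block 5 genes were called, 0 of the mitochondrial mRNAs, and Trmt61b turned to -0.20, Trit1 was -1.67 and Trmu 1.36.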
